A study of Mus musculus with 6 samples.

Results

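The genes described here are 9 that carry out glycogen synthesis and breakdown in skeletal muscle, namely Pygm, Phka1, Phkb, Phkg1, Gys1, Gbe1, Ugp2, Gyg and Ppp1r3a. They were found as the non-control probes whose RefSeq transcript accession belongs to one of these genes, which gave 14 of 55669 probes and 9 of the 20900 genes tested. Of the 9 genes, 5 had 2 probes and 4 had 1, and all 14 probes were well above background on all 6 arrays. The arrays measured whole gastrocnemius muscle of male C57BL/6J mice, with 1 array for each of 3 young mice of 13 weeks and 3 aged mice of 26 months. The sources name no treatment and no introduced allele for either group, and all mice had a standard diet. Whole muscle holds fast and slow fibres together with vessels, nerve, fat and connective tissue, so fewer cells of a type and less RNA per cell cannot be told apart in these levels.

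Glycogen is the store of glucose that a muscle fibre draws on when it contracts. Glycogenin starts each particle, glycogen synthase lengthens the chains with glucose from UDP-glucose, and the branching enzyme adds the branch points. Breakdown runs through glycogen phosphorylase, which phosphorylase kinase switches on in response to calcium and adrenaline, while protein phosphatase 1 held on the particle reverses these phosphorylations. The question put to the arrays was whether the RNAs of this machinery differed between the ages and whether they did so more than genes of similar brightness.

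None of the 9 genes passed an adjusted p of 0.05 in limma over all genes tested, where 0.249% of genes did (52 of 20900, 40 higher and 12 lower in aged mice). With normexp background correction the split of calls was 38 higher and 22 lower, and with median scaling it was 26 higher and 16 lower. The mean was lower in aged mice for 8 of the 9 genes, and Gbe1 was the exception. Over all genes tested the mean was lower in aged mice for 58.7%. Among the 200 genes nearest in mean signal to each of the 9, that share was higher, from 64.5% around Gbe1 and Ppp1r3a to 96.5% around Pygm. The median difference of the 9 genes, aged minus young, was −0.31 on the log2 scale, beside −0.08 over all genes tested. At an unadjusted p of 0.05 in limma, 2 of the 9 genes were lower, Phkb and Ppp1r3a, and 0 were higher, where 9.02% of all genes were lower and 5.72% were higher. The values of the 3 aged mice all lay under those of the 3 young mice for 4 genes, Pygm, Phkb, Gyg and Ppp1r3a, where 14.9% of all genes had such a gap downward and 7.38% had one upward. Levels are given as log2 of the processed signal minus the 75th percentile of the array, so that 0 is the brightness of the 75th percentile probe. A level on this scale depends on the probe, and levels were not set against each other between genes. With 3 mice in each group an exact two-sided permutation test cannot go below 0.1.

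**Figure D1:**
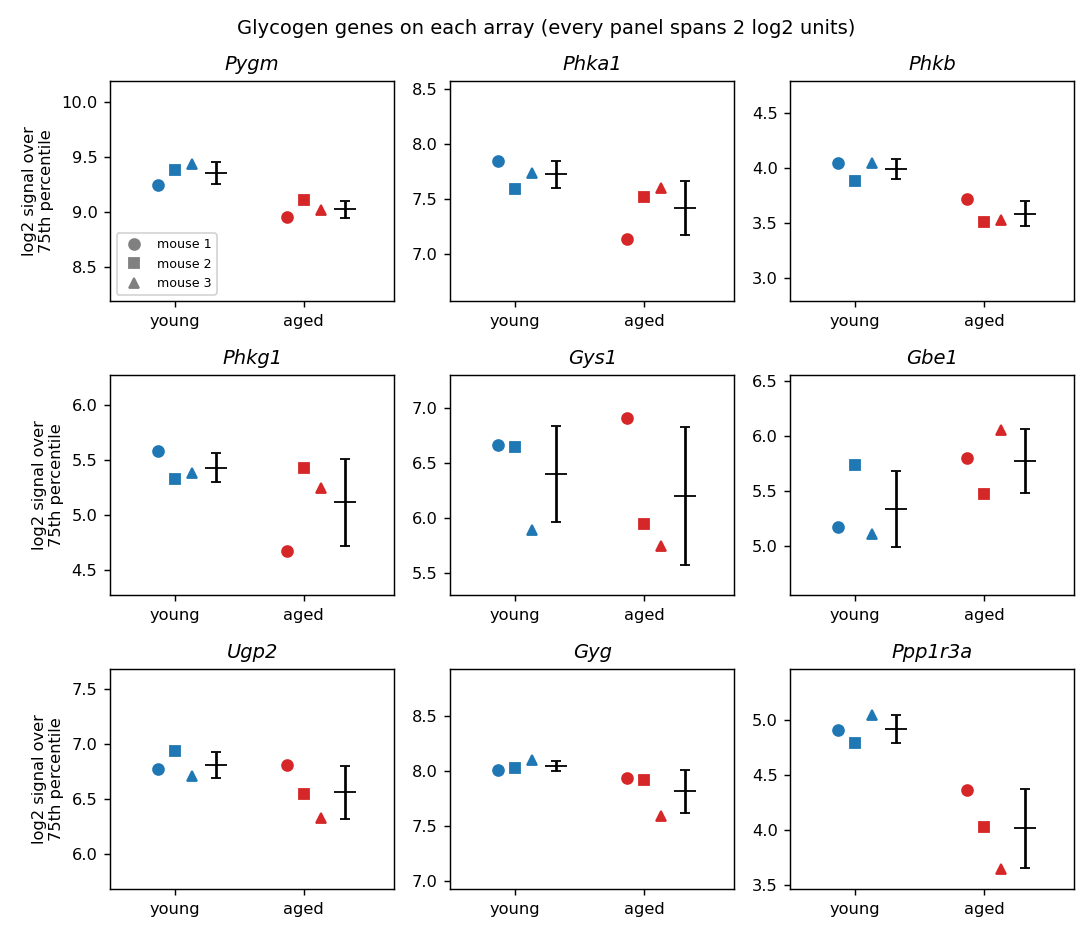
Level of each of the 9 glycogen genes on each array (log2 signal over the 75th percentile of the array), with 1 point per mouse and black bars at the mean ± SD of each group of 3. The young and aged points are separate for Pygm, Phkb, Gyg and Ppp1r3a and mixed for the other 5 genes, and Gbe1 is the gene with the higher aged mean.

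Ppp1r3a had the widest gap between the ages among the 9 genes. It encodes the muscle subunit that holds protein phosphatase 1 on the glycogen particle. Its level was 4.90, 4.79 and 5.04 in young mice 1, 2 and 3 and 4.36, 4.03 and 3.65 in aged mice 1, 2 and 3. The groups did not overlap, and the 3 aged mice were spread more widely (4.01 ± 0.36, SD, n = 3) than the 3 young mice (4.91 ± 0.13, SD, n = 3). The difference was −0.90 on the log2 scale (95% confidence interval −1.42 to −0.38, 0.535-fold), with an adjusted p of 0.169 in limma. Of the 200 genes nearest to it in mean signal, 3 had a lower difference.

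Glycogen phosphorylase, which releases glucose 1-phosphate from the chain ends, was read by the single Pygm probe. The level of Pygm was 9.24, 9.38 and 9.44 in the young mice and 8.95, 9.11 and 9.01 in the aged mice. The groups did not overlap, and the highest aged mouse was close to the lowest young mouse. The difference was −0.33 (95% confidence interval −0.69 to 0.03, 0.797-fold, adjusted p = 0.375 in limma). It was −0.14 with normexp background correction and −0.13 with quantile normalization, where the groups overlapped, and −0.15 with cyclic loess. Bright genes as a class were lower in aged mice: the 200 genes nearest to Pygm in signal had a median difference of −0.19, 96.5% of them had a lower aged mean, and 21 of them were lower than Pygm. Mouse by mouse, Pygm lay −0.40, −0.25 and −0.34 from the young mean in aged mice 1, 2 and 3, while the median of its neighbours lay at −0.36, −0.06 and −0.12.

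Phosphorylase kinase holds a catalytic gamma subunit and the regulatory subunits alpha and beta, among others. The beta subunit gene Phkb had levels of 4.05, 3.89 and 4.05 in the young mice and 3.72, 3.51 and 3.53 in the aged mice, without overlap. Its difference was −0.41 (95% confidence interval −0.77 to −0.04, 0.755-fold, adjusted p = 0.307 in limma). A second, dimmer Phkb probe read 1.23, 0.94 and −0.32 in the young mice and 1.09, 0.79 and 1.0 in the aged mice, so its groups overlapped and its difference was 0.35. The positive sign of the second probe rested on young mouse 3, as young mouse 1 lay above the aged range and young mouse 2 within it. With that mouse included, the Phkb probes disagreed in direction (r = −0.34 over the 6 arrays). With the mean of both probes in place of the brighter one, the difference of Phkb was −0.03.

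The muscle alpha subunit gene Phka1 had levels of 7.84, 7.59 and 7.74 in the young mice and 7.14, 7.51 and 7.60 in the aged mice. Aged mouse 1 was the low sample, and aged mouse 3 lay above young mouse 2. The difference was −0.31 (95% confidence interval −0.75 to 0.14, adjusted p = 0.480 in limma), and without aged mouse 1 it was −0.17. The gamma subunit gene Phkg1 showed the same low array, at 5.58, 5.33 and 5.38 in the young mice and 4.67, 5.43 and 5.25 in the aged mice. Its difference was −0.31 (95% confidence interval −0.86 to 0.23, adjusted p = 0.551 in limma), and without aged mouse 1 it was −0.09. The second Phkg1 probe followed the first over the arrays (r = 0.94), with a difference of −0.49. With any 1 mouse left out, the difference ran from −0.38 to −0.29 for Pygm, from −0.47 to −0.37 for Phkb and from −1.08 to −0.72 for Ppp1r3a.

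Among the synthesis genes, Gyg, which encodes glycogenin, had levels of 8.01, 8.03 and 8.10 in the young mice and 7.94, 7.92 and 7.59 in the aged mice. The groups did not overlap, but aged mouse 3 made most of the distance. The difference was −0.23 (95% confidence interval −0.63 to 0.16, 0.852-fold, adjusted p = 0.543 in limma), and without aged mouse 3 it was −0.12. The second Gyg probe gave −0.17, also without overlap (r = 0.98 between the probes). With normexp, quantile normalization and cyclic loess the difference of Gyg was −0.10, −0.08 and −0.08, and the groups overlapped in each and with the 75th percentile taken over detected probes. Ugp2, whose enzyme makes UDP-glucose, had levels of 6.77, 6.94 and 6.71 in the young mice and 6.81, 6.55 and 6.33 in the aged mice. Aged mouse 1 lay within the young range and the other two below it, and the difference was −0.24 (95% confidence interval −0.68 to 0.19, adjusted p = 0.561 in limma). Without aged mouse 3 the difference of Ugp2 was −0.13, and its second probe gave −0.12.

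Glycogen synthase and the branching enzyme both overlapped between the ages. Gys1, the muscle synthase, had levels of 6.66, 6.65 and 5.90 in the young mice and 6.91, 5.95 and 5.74 in the aged mice. Levels were high in young mice 1 and 2 and aged mouse 1 and low in the other three, across the ages. A second Gys1 probe had the same 3 high and 3 low arrays (r = 0.99), at 4.97, 4.90 and 3.95 in the young mice and 5.10, 4.24 and 3.97 in the aged mice. The difference of Gys1 was −0.20 (95% confidence interval −1.06 to 0.67, adjusted p = 0.818 in limma). Without aged mouse 1 it was −0.56 and without aged mouse 3 it was 0.03. Gbe1, the branching enzyme, had levels of 5.17, 5.73 and 5.11 in the young mice and 5.80, 5.47 and 6.05 in the aged mice. Young mouse 2 and aged mouse 2 crossed, so the groups overlapped, and the difference was 0.44 (95% confidence interval −0.14 to 1.01, 1.35-fold, adjusted p = 0.448 in limma). Of the 200 genes nearest to Gbe1 in signal, 188 had a lower difference than it did.

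Set against genes of equal brightness, the 9 genes differed in how far they stood out. The median difference of the 200 nearest genes ran from −0.19 around Pygm to −0.09 around Ppp1r3a. A member lay below that median by 0.81 for Ppp1r3a and by 0.31 for Phkb, and Gbe1 lay 0.55 above it. Pygm, Phka1, Phkg1 and Ugp2 lay 0.14, 0.16, 0.18 and 0.12 below it. Gys1 and Gyg lay 0.05 and 0.08 below it, close to the median of genes as bright as they are. The share of neighbours whose groups had a gap downward was 24.5% around Pygm, 20.5% around Phkb and Gyg, and 15% around Ppp1r3a. With cyclic loess the difference was −0.16 for Phka1, −0.20 for Phkg1, −0.07 for Gys1 and −0.11 for Ugp2. With normexp it was −0.24 for Phkb and 0.20 for Gbe1. Each of these was under its main size by over 1.5 times. Other scalings moved Gbe1 both ways, to 0.53 with quantile normalization, 0.55 with cyclic loess and 0.31 with median scaling. Phkb was −0.31 with cyclic loess and −0.53 with median scaling. Among the 315 genes with a mean level above 8, 289 were lower in the aged mice and their median difference was −0.18.

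**Figure D2:**
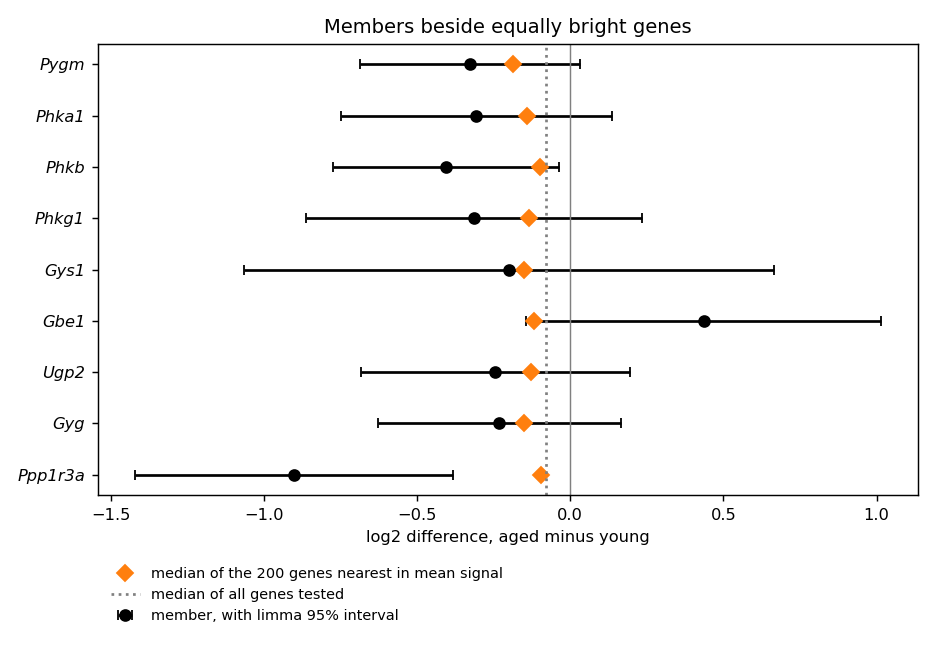
Difference between aged and young mice (log2) of each glycogen gene, shown as a black point with its 95% confidence interval in limma, beside an orange diamond at the median of the 200 genes nearest to it in mean signal and a dotted line at the median of all genes. The diamonds lie between −0.19 and −0.09, Ppp1r3a lies furthest below its diamond, and Gbe1 is the gene above it.

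Taken by role, the 4 breakdown genes (Pygm, Phka1, Phkb and Phkg1) had a median difference of −0.32 and the 4 synthesis genes (Gyg, Ugp2, Gys1 and Gbe1) had one of −0.22. The summed linear level of the breakdown genes, in multiples of the 75th percentile, was 900.4 to 963.9 in the young mice and 675 to 788.3 in the aged mice. That of the synthesis genes was 473.5 to 536.9 in the young mice and 392.9 to 533.6 in the aged mice, so that the ranges met for synthesis and not for breakdown. These sums weigh bright probes most, so Pygm leads the breakdown sum, and its groups overlapped with normexp and with quantile normalization. The difference between the roles was not tested. By mouse, the median of the 9 genes lay −0.27, −0.25 and −0.46 from the young mean in aged mice 1, 2 and 3, with 6, 8 and 8 of the 9 genes below it. On the slide, aged mouse 1 lay in one row with the 3 young mice, and aged mice 2 and 3 lay in the other row. With the row as a block the difference is that of aged mouse 1 from the young mean, which was −0.55 for Ppp1r3a, −0.40 for Pygm, −0.27 for Phkb, −0.59 for Phka1, −0.76 for Phkg1, −0.11 for Gyg, 0.01 for Ugp2, 0.51 for Gys1 and 0.46 for Gbe1. Ugp2 and Gys1 then had the opposite sign, and 0 of the 9 genes passed the threshold in limma.

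Over the 6 arrays, the 9 genes did not move as a block. The pairs with the highest correlation were Phkb with Ppp1r3a (r = 0.96) and Phka1 with Phkg1 (r = 0.93), and Gyg with Ppp1r3a came next at 0.91. Pygm and Gys1 had an r of −0.07, and Gbe1 ran against Gyg (r = −0.77) and Ppp1r3a (r = −0.75). These are descriptions over 6 arrays that share the age contrast and the scaling. Of 13840 genes with a symbol, those most like Pygm over the arrays were Mrpl12 (r = 0.998), Nfia (0.995), Atp5a1 (0.995), Mpc2 (0.992) and Hoxc11 (0.991).

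The upstream sequence of the genes was read for motifs as a description, and any part of the motifs in the age differences was not tested. RefSeq start sites in GRCm38.p6 gave 10 windows of 250 bases for the 9 genes, of which Ugp2 had a pair. An E-box (CANNTG), the motif class that myogenic factors bind, was in 9 of the 10 windows, all but that of Phkb, beside 66.2% of 32851 windows of all genes. The form CAGCTG, one of the E-boxes, was in 5 windows, those of Gys1, Phka1, Ppp1r3a, Pygm and 1 of Ugp2, beside 13.0% of all windows, and CACGTG was in none, beside 6.02%. A GC box (GGGCGG) was in 6 windows beside 32.7%, and TATAAA was in that of Ppp1r3a only, beside 12.4%. Both strands were searched, and a match is not a binding site. The windows of Pygm (chr19:6384158-6384407, plus strand), Ppp1r3a (chr6:14755275-14755524, minus strand) and Gbe1 (chr16:70313699-70313948, plus strand) are shown, as the enzyme of breakdown, the gene with the widest gap and the gene with the opposite direction, with E-boxes in capitals.
Pygm: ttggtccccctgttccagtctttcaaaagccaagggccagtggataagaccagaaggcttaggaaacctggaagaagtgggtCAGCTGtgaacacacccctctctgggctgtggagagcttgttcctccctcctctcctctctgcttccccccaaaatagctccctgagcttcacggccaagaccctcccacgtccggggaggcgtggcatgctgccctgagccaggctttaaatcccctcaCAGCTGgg
Ppp1r3a: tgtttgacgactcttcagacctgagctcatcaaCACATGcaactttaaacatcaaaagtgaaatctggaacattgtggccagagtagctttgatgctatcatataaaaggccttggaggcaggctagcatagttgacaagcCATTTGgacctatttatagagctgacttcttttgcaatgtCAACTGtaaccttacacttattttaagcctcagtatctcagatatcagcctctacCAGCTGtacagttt
Gbe1: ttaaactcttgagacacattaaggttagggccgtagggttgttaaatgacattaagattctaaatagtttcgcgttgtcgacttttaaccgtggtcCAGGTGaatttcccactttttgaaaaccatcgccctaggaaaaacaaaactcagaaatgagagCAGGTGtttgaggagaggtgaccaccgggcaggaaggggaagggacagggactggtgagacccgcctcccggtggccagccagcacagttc
Pygm had 2 CAGCTG matches, which began 168 and 8 bases before the start. Ppp1r3a had 4 E-boxes, at 217, 109, 69 and 14 bases, and Gbe1 had 2, at 154 and 91 bases, neither of them CAGCTG. The windows of Phkb, Phkg1 and Gyg, whose aged means were lower, also held no CAGCTG.

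Of 36 other genes of glycogen metabolism, 33 were tested, and Pgm2, Ppp1r3e and Ppp1r3g were not, for lack of signal above background on enough arrays. None passed an adjusted p of 0.05 in limma, 3 were lower at an unadjusted p of 0.05 (Pgm2l1, Gsk3b and Slc2a4) and 0 were higher, beside 9.02% and 5.72% of all genes. The aged mean was lower for 24 (72.7%) and higher for 9, beside 58.7% lower over all genes tested. The median difference was −0.18, beside −0.08 over all genes tested. The groups did not overlap in 6, all lower in aged mice, and in 0 upward, beside 14.9% and 7.38% of all genes. By role, the aged mean was lower for 7 of 9 genes of breakdown (median −0.10), for 5 of 7 genes of protein phosphatase 1 and its glycogen-targeting subunits (median −0.21), for 7 of 9 kinase genes (median −0.27), for 3 of 4 genes of glucose supply and hormone input (median −0.19) and for 1 of 3 genes of glycogen quality control (median 0.50).

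Pgm2l1, a relative of the enzyme that turns glucose 1-phosphate into glucose 6-phosphate, had levels of 2.46, 2.39 and 2.42 in the young mice and 1.44, 2.28 and 1.88 in the aged mice. The groups were separate, with aged mouse 1 lowest, and the difference was −0.56 (adjusted p = 0.336 in limma). Slc2a4, the insulin-responsive glucose transporter, had levels of 8.15, 8.27 and 8.32 in the young mice and 7.94, 7.84 and 7.63 in the aged mice, again with no overlap. Its difference was −0.44 (adjusted p = 0.292 in limma).

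Of the 9 kinase genes, 4 had lower aged levels without overlap, as did 14.9% of all genes. Gsk3b, a kinase that inhibits glycogen synthase, had levels of 5.23, 5.89 and 5.54 in the young mice and 5.20, 4.81 and 4.45 in the aged mice. Its difference was −0.73 (95% confidence interval −1.35 to −0.12, adjusted p = 0.285 in limma), and its other 2 probes gave −0.94 and −0.03. The probe at −0.03 read −0.14 in young mouse 3, beside 1.59 and 1.78 in young mice 1 and 2 and 0.61 to 1.66 in the aged mice. Gsk3a, the partner of Gsk3b, was at −0.27. Prkaa1 and Prkaa2, the catalytic subunits of the energy sensor AMPK, were at −0.31 and −0.32. The gap was narrow in Gsk3b, whose lowest young mouse was at 5.23 and highest aged mouse at 5.20. It was narrower in Prkaa1, at 1.61 and 1.596, and in Prkaa2 the values nearly met, at 5.4203 and 5.4201. Prkag3, the AMPK subunit of fast glycolytic fibres, had a difference of 0.50 with overlap.

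Other isoforms showed no gap between the ages. The brain and liver phosphorylases Pygb and Pygl were at −0.10 and −0.05, the liver-type kinase subunits Phka2 and Phkg2 at −0.25 and 0.09, and the liver synthase Gys2 was dim, at −0.18. Stbd1, which tethers glycogen to membranes, was among the most variable: it read 5.56, 5.40 and 5.53 in the young mice and 4.71, 6.67 and 6.89 in the aged mice. Its difference was 0.59 (adjusted p = 0.634 in limma), and without aged mouse 1 it was 1.28 with an adjusted p of 0.043 in limma. Stbd1 was the one pathway gene called in any setting, and that setting called 193 of 20900 genes. Without aged mouse 1 the young mice lay in one slide row and the aged mice in the other, so age and row cannot be told apart there. Nhlrc1, also of glycogen quality control, read 1.80, 1.69 and 2.43 in the young mice and 2.12, 2.55 and 2.73 in the aged mice. The difference of Nhlrc1 was 0.50 with overlap (adjusted p = 0.429 in limma). A second, dimmer Nhlrc1 probe was higher in the aged mice without overlap, with a difference of 0.73.

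**Figure D3:**
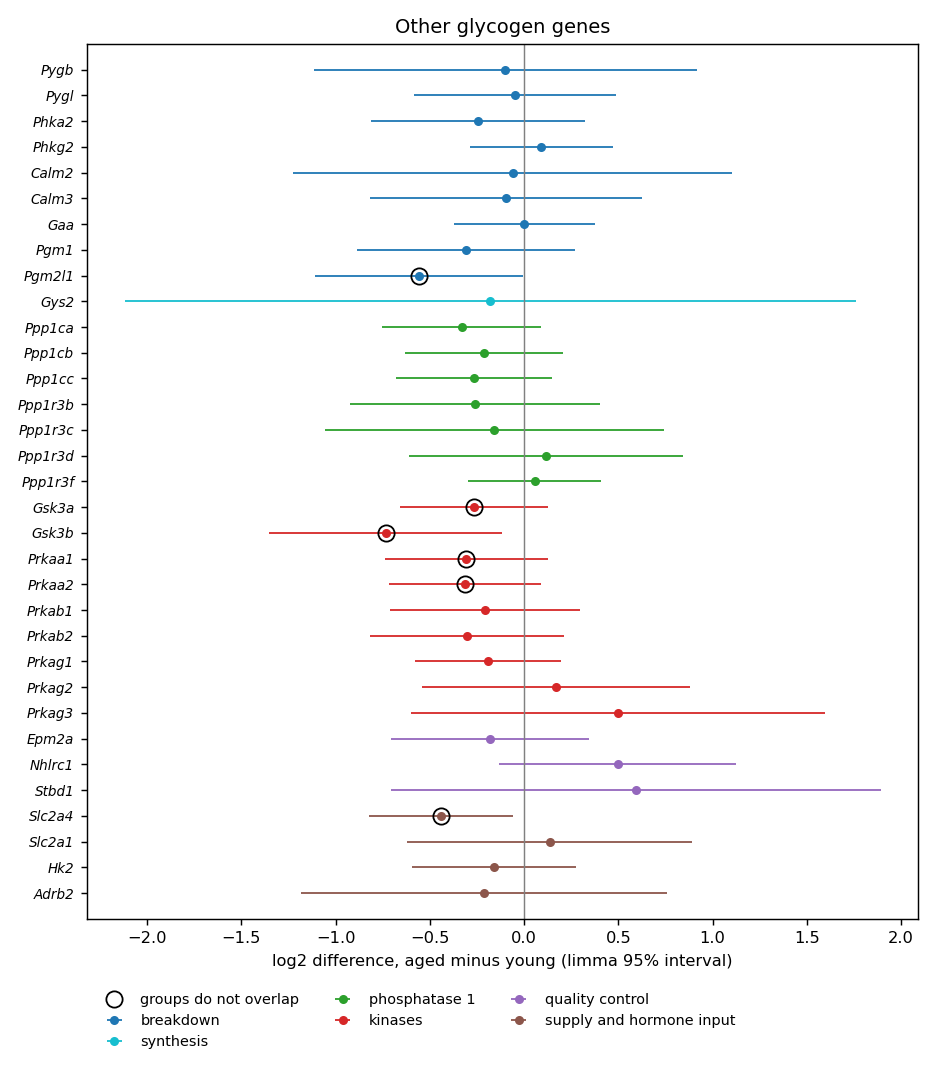
Difference between aged and young mice (log2) of the 33 other tested genes of the pathway, coloured by role, with 95% confidence intervals in limma and a black ring where the groups do not overlap. Of the points 24 lie left of 0, with Gsk3b and Pgm2l1 lowest, and the 6 ringed genes are all among them.

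The tissue label was checked against markers, and all 6 skeletal muscle markers (Acta1, Ckm, Mb, Des, Mylpf and Tnnt3) were well above background on every array. Their summed level was 2823 to 3429 in the young mice and 2407 to 3058 in the aged mice. The aged mean was lower for 4 of them and higher for 2, Des (0.15) and Mylpf (1.27). Mylpf read 4.69, 4.30 and 1.74 in the young mice and 4.73, 4.85 and 4.96 in the aged mice. Fast fibre markers were measured for 7 of 8, with no probe found for Tnni2, and all 7 were lower in aged mice, with a median of −0.17. These markers had mean levels above 8, where 289 of 315 genes were lower with a median of −0.18. Over all genes tested 58.7% were lower. All 7 slow fibre markers were lower, with a median of −0.60 and summed levels of 1130 to 1533 in the young mice and 678.2 to 1041 in the aged mice. Macrophage markers were measured for 7 of 8, with Cd163 at background, of which 6 were higher (summed level 17.7 to 19.04 against 19.7 to 24.9). Of the adipocyte markers 5 of 6 were measured, with Lep on 1 array only, and their summed level was 83.7 to 93.4 against 66.8 to 84.8. Schwann cell markers were lower for 5 of 7 (20.5 to 38.0 against 20.7 to 34.8), and endothelial markers for 2 of 5 (11.6 to 13.8 against 8.57 to 10.2). Erythrocyte markers were lower for all 4 of 5 that were measured, with no probe found for Hbb-bs (545.7 to 788 against 243.4 to 387.8), and all 5 fibroblast markers were lower (374.1 to 424.4 against 166.6 to 283.4). The part of these shifts in the differences of the glycogen genes was not tested.

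**Figure D4:**
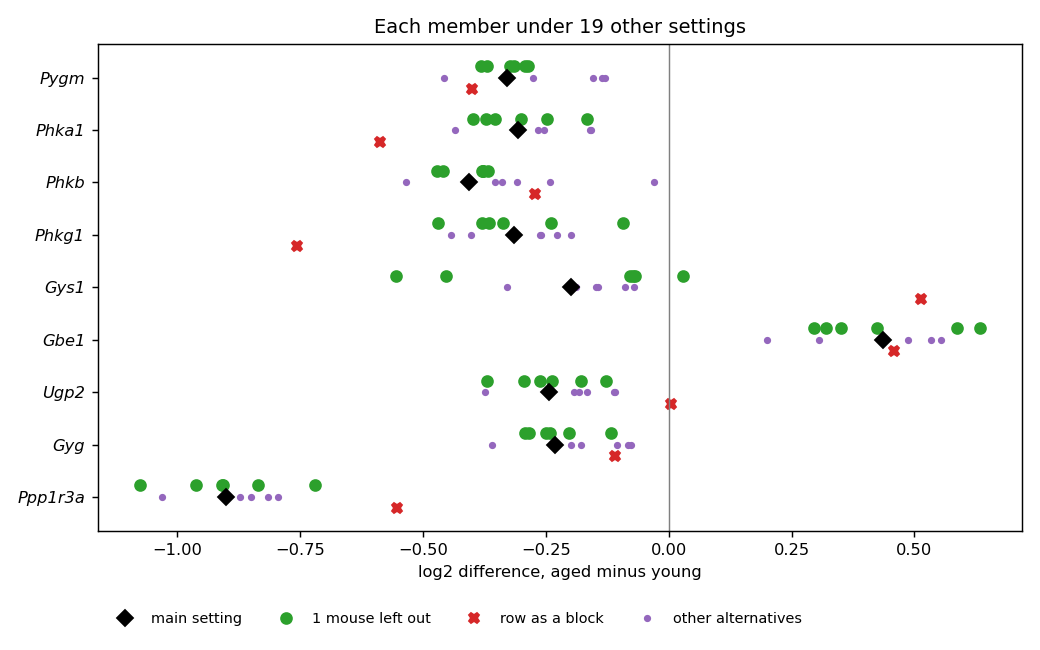
Difference between aged and young mice (log2) of each glycogen gene in the main setting (black diamond) and under 19 alternatives, with 1 mouse left out in green, the array row as a block in red and the others in purple. Ppp1r3a stayed below −0.5 throughout, Gbe1 stayed above 0, and Gys1 and Ugp2 crossed 0.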

How the data were processed

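Total RNA of gastrocnemius from 3 young and 3 aged mice was labelled with Cy3 and hybridised, 1 array per mouse, to 1-colour Agilent arrays on 1 slide. The deposited files hold the intensity of each spot as Agilent Feature Extraction gave it, and the deposited series matrix holds the same values. The labels name version 9.5 of that software and the file headers 11.0.1.1. The methods name no test for the arrays.

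From the deposited processed signal, non-uniform spots and population outliers were dropped by their flags, log2 was taken, and the 75th percentile of each array over all non-control spots was subtracted. Other columns of the deposited scanner files gave the background flag of each spot. Spots of a probe were averaged, probes well above background on at least 3 of 6 arrays were kept, and the brightest such probe stood for its gene. The fit used limma 3.58.1 (lmFit and eBayes) in R 4.3.3 with age as the term, and p-values were adjusted by Benjamini-Hochberg over 20900 genes at a threshold of 0.05. The code was tested on simulated data. Each gene was also set beside the 200 genes nearest to it in mean signal.

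The members and gene lists were chosen with earlier results of these data known. Of other glycogen genes, those without overlap, the 5 with the largest differences, and fixed isoforms were named, and 2 listed genes are not reported here. The number of arrays limits the precision. Replicates are mice given by number in the labels, so p-values set the age difference against the spread between these mice. In eBayes the variance of each gene is drawn toward a value shared over all genes tested.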

Additional observations from a re-analysis of the deposited data

How the results depend on the processing

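Across the 19 alternatives, 0 of the 9 glycogen genes passed the threshold, as in the setting reported, and 10 of the 19 counts of all genes past it lay within 1.5 times of 52. The series matrix is among these 10, and its count of 52 was fixed in advance because it holds the same values. The count of all genes was 8 with no filter on dim probes, 32 when a probe had to be well above background on all 6 arrays, and 5 with the replicate block. It ran from 1 (without aged mouse 3) to 193 (without aged mouse 1) when single mice were left out. Without aged mouse 1, age and slide row cannot be told apart. Deviations of same-numbered mice correlated at −0.06, −0.27 and 0.03, and those of mice with different numbers at −0.21 to 0.35. With 3 mice in each group these values cannot show whether the mice were paired, and the main setting used no pairing. The median difference of the 9 genes, −0.31, was −0.17 with normexp background correction, −0.13 with quantile normalization, −0.15 with cyclic loess, −0.44 with median scaling and −0.20 with the mean of all probes, and −0.35 to −0.25 with single mice left out. Median scaling moved the median of all genes from −0.08 to −0.21. The number of genes lower in aged mice was 8, or 6 with the array row as a block and 7 without aged mouse 3. With the row as a block, the difference was 0.51 for Gys1 and 0.0050 for Ugp2, both opposite to the main sign, and without aged mouse 3 it was 0.030 for Gys1, which ran from −0.56 (without aged mouse 1) to 0.030 with single mice left out. Among other glycogen genes, 0 to 1 passed with single mice left out. The count of members without overlap, chosen after seeing the data, was 4 (14.9% of all genes), 2 with normexp (14.5%), 2 with quantile normalization (13.3%), and 4 to 5 with single mice left out (17.3% to 24.8%). Ppp1r3a ran from −1.08 to −0.55, with adjusted p from 0.076 to 0.455 in limma. The cause of these shifts was not tested.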
